A study of Mus musculus with 2 samples.

Results

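The ends of protein-coding genes were examined as a setting for open chromatin in the mouse adrenal gland. Peaks of DNase I cutting from 2 pools were merged where they overlapped by at least 1 bp, which gave 96584 regions holding a peak of both pools. Of these, 677 regions (0.701%) had their midpoint within 500 bp of the annotated end of a protein-coding gene, over 2 kb from every annotated transcription start site (TSS) and outside coding sequence (CDS). Genes were those of the GENCODE M21 basic annotation on mm10. No signal value entered this choice. The other 64952 shared regions over 2 kb from every TSS with their midpoint outside CDS are called other distal regions and serve as the reference throughout.

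DNase I cuts accessible DNA, so regions dense in cuts mark places where nucleosomes are displaced or remodelled. The tissue was whole adrenal gland of male B6CASTF1/J mice, the F1 hybrids of C57BL/6J and CAST/EiJ, aged 8 to 10 months. Each of the 2 pools combined 6 biosamples and gave 1 library, and both carry 1 shared donor identifier. How many animals went into them is not stated in these sources. The series holds 1 group of animals with no treatment and no control, so the pools are compared only for agreement and no p-value is given. Whole glands mix cortex, medulla, vessels and capsule, and fewer cells of a type with an open region cannot be told apart from weaker opening in each cell. A peak lay within 1 kb of the TSS in both pools for 10 of 12 adrenal marker genes, among them the steroid genes Star, Cyp11a1, Cyp21a1 and Cyp11b1 and the chromaffin genes Th, Dbh and Chga. The exceptions were Hsd3b1 and Pnmt.

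The end of a protein-coding gene is taken here as the farthest annotated 3′ end of its transcripts, where the RNA is cleaved and polyadenylated. The cleavage machinery recognises an A-rich hexamer, most often AATAAA, shortly upstream of the cut, and RNA polymerase II then runs on past the end before it is released. The stretch just before the end is therefore usually 3′ UTR and rich in A and T. The stretch after the end is flanking DNA or the body of a neighbour. Open regions near the end can belong to enhancers, to unannotated promoters or to insulator elements bound by CTCF. CTCF is the zinc finger factor at which cohesin loops are anchored. AP-1, a dimer of Fos and Jun family proteins, is a common occupant of distal enhancers. NR5A1 (SF-1) is the orphan nuclear receptor that drives adrenal steroidogenic genes, and CREB acts downstream of the ACTH receptor through cyclic AMP.

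The sequences below show what the motif matches looked like at 8 gene-end regions. Each is the reference GRCm38 (mm10) plus strand over 75 bp on either side of the midpoint of the region, taken from C57BL/6J, while the animals were hybrids of that strain with CAST/EiJ. Capitals mark motif matches on either strand, and none of these regions touches an exon. The first 3 hold a match to the core of the CTCF motif and are among the 6 CTCF-bearing gene-end regions with the most signal. They lie at chr2:30794896-30795046 in an intron of 1700001O22Rik, at chr4:137730236-137730386 outside genes past Rap1gap, and at chr8:105622496-105622646 past Ripor1 in an intron of Agrp. The Ripor1 window also holds an E-box (CAGCTG).
1700001O22Rik: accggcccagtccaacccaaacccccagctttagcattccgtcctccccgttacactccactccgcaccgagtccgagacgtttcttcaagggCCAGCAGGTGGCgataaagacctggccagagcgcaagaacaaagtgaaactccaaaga
Rap1gap: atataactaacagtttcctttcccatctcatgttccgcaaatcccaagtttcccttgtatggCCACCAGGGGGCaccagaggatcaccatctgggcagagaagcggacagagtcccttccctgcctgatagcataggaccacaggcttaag
Ripor1: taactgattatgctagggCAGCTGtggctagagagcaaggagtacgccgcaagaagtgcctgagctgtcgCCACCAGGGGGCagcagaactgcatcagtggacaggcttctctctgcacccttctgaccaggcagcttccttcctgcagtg

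The next 3 hold the AP-1 motif (TGANTCA) and lie outside genes, past Zfp36l2 at chr17:84183576-84183726, past 2010109I03Rik at chr15:74876476-74876626 and past Ddit4 at chr10:59949396-59949546. Zfp36l2 and 2010109I03Rik are among the 10 gene-end regions with the most signal, and the 2010109I03Rik window also holds overlapping GATA matches (AGATAAG).
Zfp36l2: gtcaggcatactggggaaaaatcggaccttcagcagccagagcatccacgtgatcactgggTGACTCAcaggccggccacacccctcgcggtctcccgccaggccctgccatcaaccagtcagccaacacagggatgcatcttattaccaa
2010109I03Rik: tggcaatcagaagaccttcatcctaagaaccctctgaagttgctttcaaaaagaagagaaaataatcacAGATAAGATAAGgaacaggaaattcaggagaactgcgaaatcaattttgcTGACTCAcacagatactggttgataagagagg
Ddit4: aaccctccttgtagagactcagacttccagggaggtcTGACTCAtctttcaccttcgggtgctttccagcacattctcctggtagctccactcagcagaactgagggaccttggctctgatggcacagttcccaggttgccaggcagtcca

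The last 2 are examples of motifs that were rare at gene ends and in other distal regions alike. The Apba2 window at chr7:64754256-64754406 holds a cyclic AMP response element (CRE, TGACGTCA). The Wdr82 window at chr9:106191479-106191629 holds the NR5A1 motif (TCAAGGTCA) and the NR4A motif (AAAGGTCA) in overlap, read on the minus strand, with an AP-1 match nearby. The NR5A1 and NR4A motifs share their last letters, and the AP-1 motif and the CRE are alike in letters.
Apba2: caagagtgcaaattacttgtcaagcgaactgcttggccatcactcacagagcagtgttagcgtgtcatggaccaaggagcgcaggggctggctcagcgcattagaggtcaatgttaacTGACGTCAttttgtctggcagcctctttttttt
Wdr82: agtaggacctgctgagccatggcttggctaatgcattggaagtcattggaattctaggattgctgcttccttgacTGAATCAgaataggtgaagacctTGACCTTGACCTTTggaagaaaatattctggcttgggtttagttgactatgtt

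Open regions were about as frequent at gene ends as in DNA 2 to 10 kb away, with lower values than in the DNA just outside the window. Of 21938 protein-coding genes, 17373 had an end over 2 kb from every TSS, and 635 of these ends (3.66%, exact binomial 95% interval 3.38 to 3.94) had a shared region within 500 bp. No peak of either pool touched the 500 bp on either side of 15929 ends (91.7%). The 677 regions were nearest to the ends of 645 genes, 613 with 1 region and 32 with 2. For 10 regions the gene end itself lay within 2 kb of a TSS although the region did not. Per Mb of eligible bases (over 2 kb from every TSS, outside CDS and assembly gaps), there were 42.3 shared regions within 500 bp of an end (exact Poisson 95% interval 39.2 to 45.6). At 2 to 10 kb from the nearest end there were 40.7 (39.8 to 41.5, from 8510 regions). The ratio was 1.04 with an interval of 0.96 to 1.13, which includes equal density. Just outside the window there were 45.8 per Mb at 501 to 1000 bp before the end (41 to 51.1), 49.2 at 501 to 1000 bp past it (44.4 to 54.2) and 47.6 at 1 to 2 kb past it (44.3 to 51.2). All 3 intervals overlapped that of the 500 bp window. All these intervals cover counting error over regions or ends, which are not replicates.

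The density was uneven within the window, with a dip over the last 100 bp of the gene. Shared regions with their midpoint there numbered 34, or 20.6 per Mb. The 100 bp before that stretch had 42.5 per Mb, and the first 100 bp past the end had 31.1. At 100 to 199 and 200 to 299 bp past the end the densities were 52.3 and 57.1 per Mb. The dip was also present in each pool on its own, in a measure that uses no midpoint. The share of eligible bases with a false discovery rate (FDR) under 0.05 in the deposited per-base table was 0.878% in pool 1 and 1.41% in pool 2 over the last 100 bp. At 200 to 299 bp past the end it was 1.6% and 2.14%. The GC content of the eligible bases was lowest in the same bin, at 36.1% against 44.7% at 200 to 299 bp past the end.

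**Figure D1:**
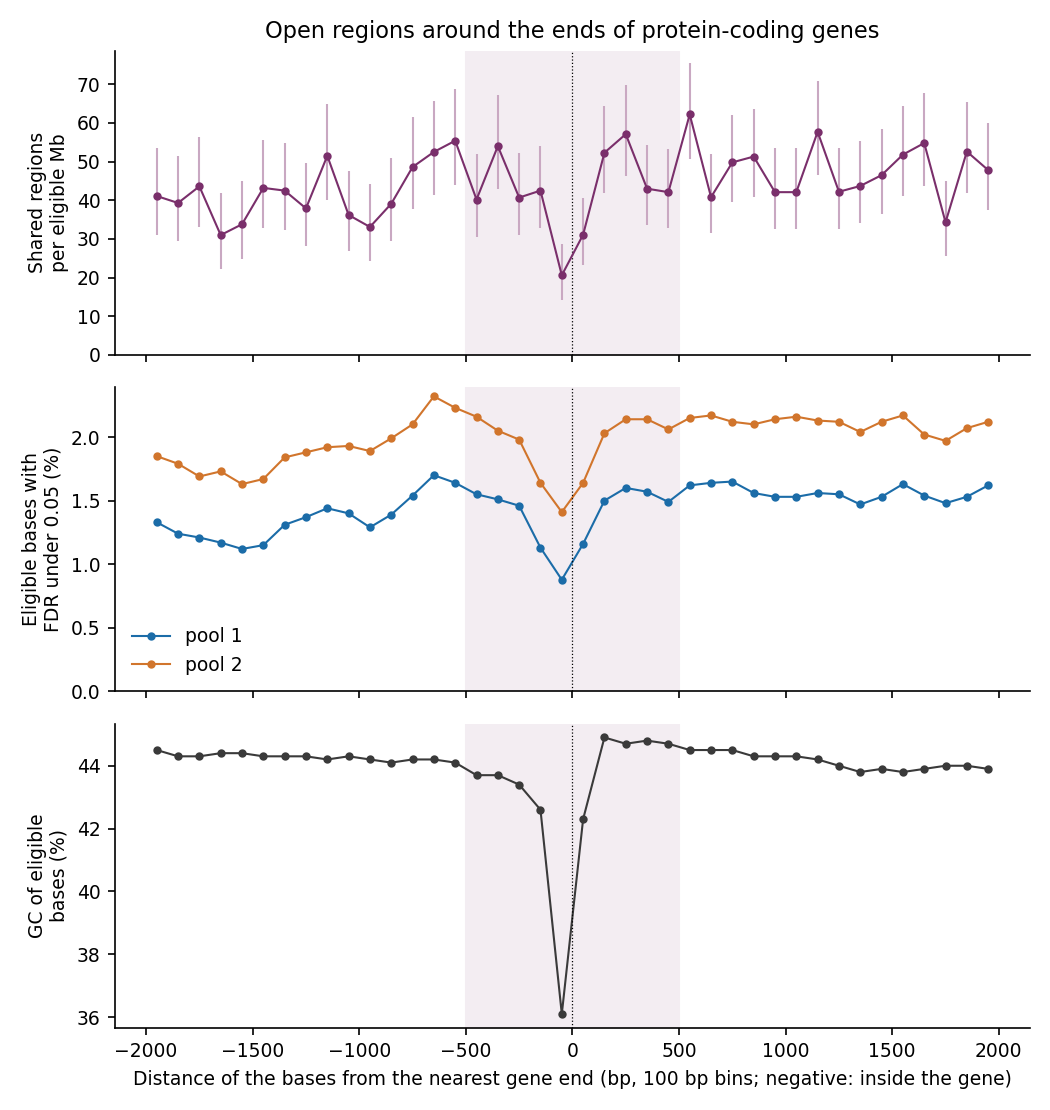
Distance from the nearest gene end in 100 bp bins (x axis, bp) against the number of shared regions per eligible Mb with exact Poisson 95% intervals (top), the percentage of eligible bases with FDR under 0.05 in each pool (middle) and the GC percentage of the eligible bases (bottom, axis not from 0), with the 500 bp on each side shaded. All 3 are lowest within the shaded window in the bin just before the end, at 20.6 regions per Mb, 0.878% and 1.41% of bases, and 36.1% GC.

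The windows were also sorted by GC content, a sorting chosen after seeing the data. Whole 100 bp windows at eligible ends were sorted by their GC into under 35%, 35 to 44% and 45% or more. Of 16196 windows over the last 100 bp, 7768 had under 35% GC, against 2263 to 3869 windows in this class at each of the other 9 positions within 500 bp. In windows with 45% GC or more, the share of bases with FDR under 0.05 over the last 100 bp was 2.43% in pool 1 and 3.69% in pool 2, inside the range of 2.29 to 2.85% and 3.1 to 3.93% at the other positions. In windows with 35 to 44% GC it was 0.89% and 1.5%, above the 0.439 to 0.878% and 0.71 to 1.21% elsewhere. In windows under 35% GC it was 0.19% and 0.38%, against 0.0412 to 0.193% and 0.152 to 0.375% elsewhere. In both pools the last 100 bp were lowest of the 10 positions over all windows together, and in none of the 3 GC classes. The cause of the dip was not tested. Ends with AATAAA or ATTAAA in their last 50 bp had 0.771% and 1.3% over the last 100 bp, and ends with neither had 1.19% and 1.75%, at a mean GC of 35.1% and 38.8%. In both kinds of end these were the lowest values of the 10 positions.

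More of the regions lay past the end than before it. The midpoint was past the end base for 377 of 677 (55.7%, 51.9 to 59.5), while 52.1% of the eligible bases lay on that side, a share inside the interval. The region spanned the end base itself in 109 cases. Of the 300 regions before the end, 251 (83.7%) were in a 3′ UTR and 49 (16.3%) in an intron. Of the 377 past the end, 301 (79.8%) were outside genes and 49 (13%) were in an intron of a neighbour or of another record. A further 26 (6.9%) were in a 3′ UTR of another gene record. The remaining 1, past Cyp21a1, lay in an exon of Tnxa, a tenascin-related record beside it. A record of another gene covered the midpoint of 136 regions (20.1%). On the other side of the annotation, 890 of the other distal regions (1.37%) were in a 3′ UTR.

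The regions had more signal than other distal regions in both pools. Signal is the value the authors gave for each peak. Its median over the 677 regions was 0.959 in pool 1 (quartiles 0.639 and 1.46, range 0.223 to 9.27) and 1.21 in pool 2 (quartiles 0.775 and 1.9, range 0.2 to 12). Other distal regions had medians of 0.706 and 0.903. Ranked among all shared regions, the median percentiles were 58.3 and 56.9 against 42.9 and 43.1. The excess was not particular to the 500 bp window: the medians fell gradually with distance, from 0.929 and 1.15 at 501 to 1000 bp to 0.84 and 1.09 at 5 to 10 kb and 0.609 and 0.783 beyond 50 kb. It was present at each distance from the TSS, with 1.02 and 1.29 against 0.825 and 1.06 at 2 to 5 kb, and 0.725 and 1.03 against 0.617 and 0.791 beyond 20 kb. Over percentile 90 in both pools were 29 regions (4.28%, 2.89 to 6.09), against 2.8% of other distal regions. Over percentile 99 in both pools was 1 region (0.148%, 0.00374 to 0.82), at Ctdsp1, against 0.0539%.

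Among themselves the regions differed more by base composition than by place. The medians were 0.973 and 1.17 for those in a 3′ UTR, 0.947 and 1.21 in introns, and 0.936 and 1.22 outside genes. The 62 regions with under 45% GC had medians of 0.635 and 0.799, the 393 with 45 to 55% had 0.907 and 1.11, and the 222 with 55% or more had 1.11 and 1.51. Spearman's rho of GC and signal over the 677 regions was 0.273 in pool 1 and 0.258 in pool 2, as a description of regions that share 2 libraries. The median GC was 52.3%, against 49.7% in other distal regions and 41.7% in 45342 windows at gene ends that no peak touched. Distal regions at 501 to 1000 bp and at 1001 to 2000 bp from an end had the same median GC, 52.3%. It was 51.7% at 5001 to 10000 bp, 50.3% at 10001 to 50000 bp and 49% from 50001 bp on. The higher GC than in other distal regions was therefore not particular to gene ends. CpG-rich regions, with an observed to expected CpG ratio over 0.6 and GC over 50%, made up 41 of the 677 (6.06%), 3.4% of other distal regions and 0.659% of the windows without a peak. These 41 had medians of 1.49 and 2.33, and 18 of the 50 gene-end regions with the highest mean rank were CpG-rich.

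The 10 regions with the highest mean rank over both pools comprised 5 CpG-rich regions and 3 with an AP-1 match, and none held a CTCF match. The top region, chr1:74397361-74397620, lay 206 bp past Ctdsp1, a phosphatase of the RNA polymerase II C-terminal domain, with a signal of 9.27 in pool 1 and 12 in pool 2 and 69.5% GC. The second, chr13:48878641-48878900, lay 448 bp past Fam120a, an RNA-binding scaffold protein, with 8.09 and 10.5. Both were outside genes and over 3 kb from a TSS. The next 3 were in 3′ UTRs. At Bad, the pro-apoptotic BCL2 family member, the region chr19:6951461-6951780 lay 278 bp before the end with 7.88 and 9.22. At Bcat2, the mitochondrial branched-chain aminotransferase, chr7:45589201-45589500 had 7.26 and 8.7. At Pla1a, a phosphatidylserine phospholipase, chr16:38396241-38396500 had 6.78 and 8.01 and lay over 20 kb from any TSS in every annotation used. In all 5 the signal was higher in pool 2, as it was in 567 of the 677 regions.

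The remaining 5 of these 10 were near Dnajb12, Zfp36l2, Lrrc24, 2010109I03Rik and Ldhd. The region 479 bp past Dnajb12, an endoplasmic reticulum co-chaperone, had 6.15 and 7.43. The region 280 bp past Zfp36l2, which promotes decay of AU-rich mRNAs, had 6.13 and 7.19 and carries the AP-1 match printed above. In a 3′ UTR at the end of Lrrc24, a leucine-rich repeat protein, the values were 6.12 and 6.82, with a match to the NRF1 motif (GCATGCGC). The midpoint there also lies within the record of Lrrc14. The region past 2010109I03Rik differed from the rest in composition, with 38.4% GC, and in having no higher signal in pool 2 (5.8 and 5.68). In a 3′ UTR near the end of Ldhd, the mitochondrial D-lactate dehydrogenase, the values were 5.02 and 6.29, with an AP-1 match. The midpoint of that region also lies within the record of Znrf1. Whose 3′ UTR it is was not separated at Lrrc24 and Ldhd.

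Some of these regions lie near start sites that the basic annotation leaves out. Within 500 bp of a TSS of the comprehensive GENCODE set or of RefSeq were 18 regions (2.66%), within 1 kb 35 (5.17%) and within 2 kb 93 (13.7%). The Bad region was 854 bp and the Zfp36l2 region 720 bp from such a TSS. The 93 regions had median signals of 1.14 and 1.48, and the other 584 had 0.917 and 1.14. Other distal regions, which were not sorted by these added start sites, had 0.706 and 0.903. The part of such start sites in the signal was not tested.

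**Figure D2:**
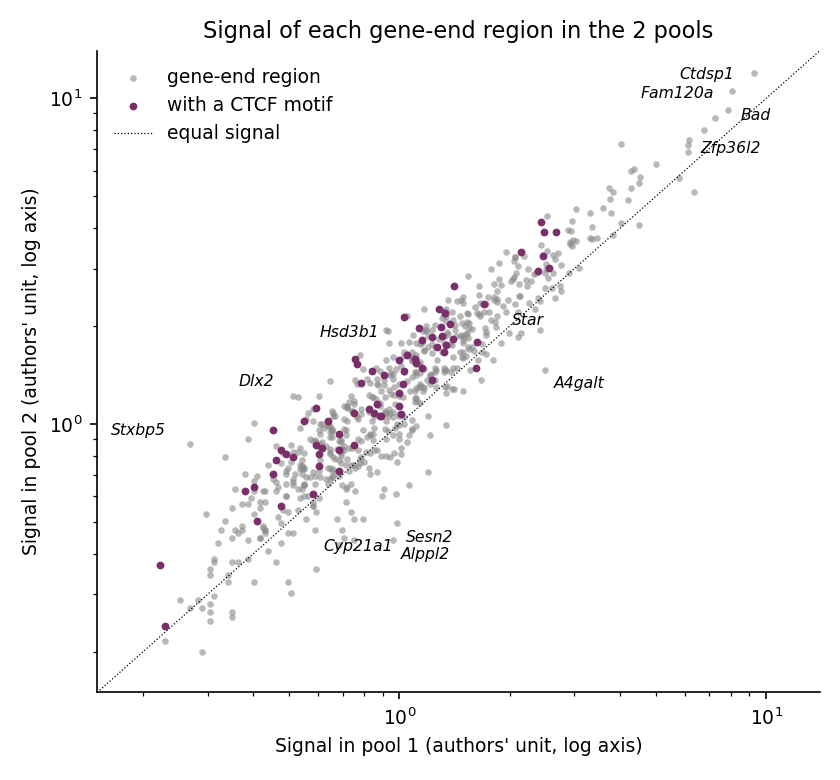
Signal in pool 1 (x axis) against signal in pool 2 (y axis), both in the authors' unit on log axes, 1 point per gene-end region, with regions that hold a CTCF motif coloured and the dotted line at equal signal. The points run from 0.223 and 0.2 to 9.27 and 12, and 567 of the 677 lie above the line, with Stxbp5 the farthest above it and Alppl2 the farthest below.

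The 2 pools ranked the regions alike, with Spearman's rho of 0.919 over the 677 regions as a description. The median log2 ratio of pool 2 to pool 1 was 0.34 (SD 0.35 over regions), and over all shared regions it was 0.35 (SD 0.37). Relative to that overall median, 1 region was over 1 log2 unit higher in pool 2, where 0.296% of all shared regions were, and 11 were over 1 log2 unit lower, where 0.979% were. The largest ratio was 496 bp past Stxbp5 (tomosyn, an inhibitor of vesicle fusion), at 0.268 in pool 1 and 0.871 in pool 2 (log2 ratio 1.70). It was followed by the regions past Wipf1 (0.401 and 1.01) and Dlx2 (0.513 and 1.22), both with an AP-1 match, by an intronic region at Sult6b2 (0.334 and 0.791) and by one past Olfr1385 (0.386 and 0.903), again with an AP-1 match. None of these AP-1 matches overlapped a footprint in pool 2. As a set, gene-end regions with an AP-1 match (14.6%) had medians of 0.907 and 1.15, against 0.959 and 1.21 over all 677. Among the lowest ratios were those at Alppl2 (0.959 and 0.44, log2 ratio -1.12), Sesn2 (0.988 and 0.496), A4galt (2.5 and 1.47) and the Y-linked Eif2s3y (0.751 and 0.44). With 1 library per pool, a difference between pools has no replicate check.

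CTCF matches were more frequent at gene ends than in other distal regions, and AP-1 matches less frequent. Both strands of the bases within 75 bp of the midpoint were searched for 16 motifs. The CTCF core was found in 70 of the 677 regions (10.3%, 8.15 to 12.9), in 5.66% of other distal regions and in 0.0662% of windows at gene ends without a peak. The AP-1 motif was found in 99 regions (14.6%, 12 to 17.5), against 24% of other distal regions and 4.25% of windows without a peak. No region held both, and the share of other distal regions with both was not counted, so nothing is read from this. Among the other motifs, the SP/KLF box (GGGGCGGG) was present in 17 regions (2.51%, 1.47 to 3.99), against 1.11% of other distal regions. Its share was much the same, 2.5%, at 501 to 1000 bp from an end. It was 1.55% at 1 to 2 kb, 1.87% at 2 to 5 kb and 0.721% beyond 50 kb. The E-box was present in 83 (12.3% against 13.3%), GATA in 22 (3.25% against 3.52%), the TEAD motif (CATTCCA) in 19 (2.81% against 3.25%), NR4A in 17 (2.51% against 2.72%) and the RUNX motif (TGTGGTTT) in 13 (1.92% against 1.38%), each with the reference share inside its interval. Any of the motifs was present in 303 (44.8%, 41 to 48.6), against 49.2%.

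**Figure D3:**
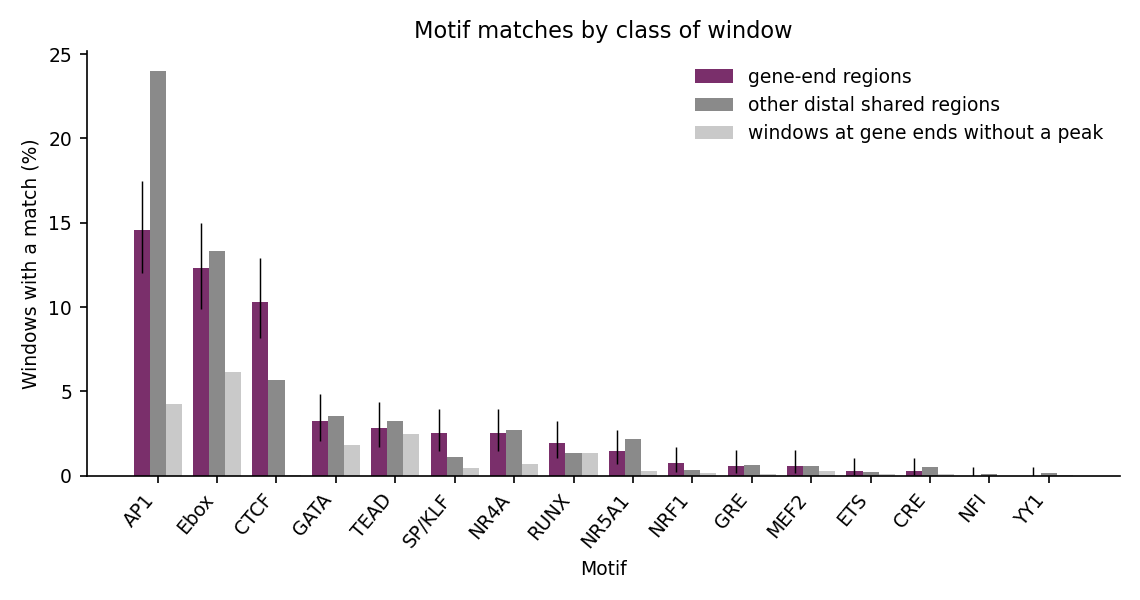
Percentage of windows with a match to each motif (x axis) in the 677 gene-end regions (with exact binomial 95% intervals), in the 64952 other distal regions and in 45342 windows at gene ends that no peak touches. AP-1 stands at 14.6% against 24% and CTCF at 10.3% against 5.66%, while for most other motifs the reference bar lies inside the interval.

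The higher CTCF share belonged to the wider neighbourhood of gene ends, while the AP-1 share was lowest at the ends themselves. Distal regions at 501 to 1000 bp from an end had CTCF matches in 9.58% of cases, those at 1 to 2 kb in 10.6%, at 2 to 5 kb in 9.69% and at 5 to 10 kb in 9.53%, all close to the 10.3% within 500 bp. The share was 6.58% at 10 to 50 kb and 3.66% beyond 50 kb. For AP-1 the share within 500 bp (12 to 17.5%) did not overlap the interval at 501 to 1000 bp, which was 21.4% (18.4 to 24.6). It overlapped the interval at 1 to 2 kb (18.5%, 16.4 to 20.8), and the share was 20.5% at 2 to 5 kb, 20.7% at 5 to 10 kb and 25.6% beyond 50 kb.

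**Figure D4:**
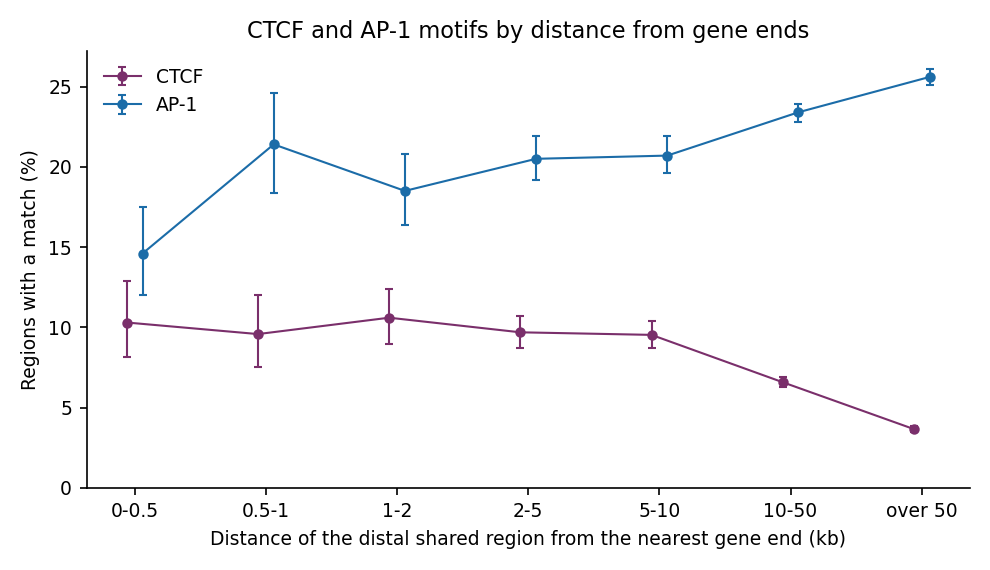
Percentage of distal shared regions with a CTCF or AP-1 match (y axis) by distance from the nearest gene end in kb (x axis, unequal bands), with exact binomial 95% intervals. The CTCF share stays between 9.53% and 10.6% up to 10 kb and falls to 3.66% beyond 50 kb, while AP-1 is lowest, at 14.6%, in the band nearest the end.

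The AP-1 difference was seen in most but not all strata. By GC, the share was 14.2% (10.9 to 18.1) against 25.1% of other distal regions at 45 to 55% GC and 9.46% (5.95 to 14.1) against 16.2% at 55% or more. In the 62 regions under 45% GC the order was the other way, at 35.5% (23.7 to 48.7) against 27.9%. By distance from the TSS it was 12.5% against 21.4% at 2 to 5 kb, 15.6% against 23.8% at 5 to 20 kb and 15.3% against 24.9% farther away. By mean rank of signal it was 19.4% (13.3 to 26.9) against 20.7% in the lowest tercile, 12.4% (8.85 to 16.8) against 23% in the middle one and 14.4% (10.2 to 19.5) against 30.8% in the highest. For CTCF, the shares were 6.45% (1.79 to 15.7) against 4.54% under 45% GC, 10.4% (7.59 to 13.9) against 5.73% at 45 to 55% GC and 11.3% (7.42 to 16.2) against 6.61% at 55% or more. By distance from the TSS the CTCF shares were 10.5% (6.62 to 15.6) against 6.55% at 2 to 5 kb, 8.91% (6.18 to 12.4) against 6.26% at 5 to 20 kb, where the reference lay inside the interval, and 14.4% (8.62 to 22.1) against 4.85% farther away. By mean rank they were 8.33% (4.38 to 14.1) against 4.55% in the lowest tercile, again inside the interval, 11.7% (8.26 to 16) against 6.63% in the middle one and 9.88% (6.43 to 14.3) against 6.02% in the highest. Before the end 12% of regions held an AP-1 match (8.55 to 16.2), and past it 16.7% (13.1 to 20.9), with overlapping intervals.

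Matches to CTCF mostly coincided with a footprint, a short protected stretch within a peak that the authors called in each pool. Of 72 CTCF matches, 62 (86.1%, 75.9 to 93.1) overlapped a footprint in both pools, against 74.1% of matches in other distal regions, a share below that interval. Of 107 AP-1 matches, 23 did (21.5%, 14.1 to 30.5, against 31%), and of 19 SP/KLF matches 12 did (63.2%, 38.4 to 83.7, against 41%). None of these comparisons was matched for signal. The CTCF match was on the same strand as the gene in 44 of 72 cases (61.1%, 48.9 to 72.4). By place the CTCF share was 11.2% in 3′ UTRs, 10.2% in introns and 9.63% outside genes, so it was similar on either side of the end. The 70 regions had median signals of 0.951 and 1.35.

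The 6 with the highest mean rank were at Dand5, 1700001O22Rik, Rap1gap, Ror2, 1700029H14Rik and Ripor1. The region in the 3′ UTR of Dand5, a secreted antagonist of Nodal, had 2.68 in pool 1 and 3.89 in pool 2. The region past Rap1gap, which switches off the small GTPase Rap1, had 2.48 and 3.89. The region in the 3′ UTR of Ror2, a Wnt5a receptor, had 2.46 and 3.28 and was 60000 bp from the nearest TSS of any annotation used. The region past Ripor1 had 2.15 and 3.37 and lies within an intron of Agrp, whose product antagonises melanocortin receptors. All 6 were higher in pool 2 and held 2 to 5 footprints in each pool.

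Motifs of adrenal regulators were few, at gene ends as in other distal regions. For NR5A1 and for the CRE (interval 0.0358 to 1.06%) the share in other distal regions lay inside the interval. NR5A1 matches were present in 10 regions (1.48%, 0.711 to 2.7, against 2.21% of other distal regions), 8 of them before the end and 2 past it. The highest by mean rank were in the 3′ UTRs of Derl2, a component of endoplasmic reticulum protein degradation (1.47 and 1.88), and Cklf, a chemokine-like factor (1.67 and 1.37), and past Wdr82, a subunit of a histone methyltransferase complex (1.34 and 1.47). A CRE was present in 2 regions (0.295% against 0.514%), past Apba2 (1.39 and 1.75) and in the 3′ UTR of Zmat3 (0.476 and 0.496). The glucocorticoid response element and the MEF2 motif were present in 4 regions each (0.591%, against 0.622% and 0.563%). The NRF1 motif was present in 5 (0.739% against 0.353%) and the ETS motif (CCGGAAGT) in 2 (0.295% against 0.251%). No match was found for NFI or for YY1 (AAGATGGCG), each with an upper bound of 0.543% and shares of 0.109% and 0.16% in other distal regions. No match says only that these letters are not in the window.

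Footprints were called in most of the regions. At least 1 was present in 610 (90.1%) in pool 1, in 622 (91.9%) in pool 2 and in 574 (84.8%, 81.9 to 87.4) in both, against 78.5% of other distal regions. This comparison was not matched for signal, which was higher at gene ends. With the upper 50% of peaks by signal, the share of gene-end regions with a footprint in both pools was 94.1%. The median was 2 per region in each pool, and 19 had none in either. The region with the most, summed over both pools, was chr1:75124841-75125320, 460 bp past Slc23a3, an orphan member of the ascorbate transporter family, in an intron of Nhej1. It held 14 footprints in pool 1 and 7 in pool 2, its signal was 3.58 and 4.6, and it lay 119 bp from a TSS of another annotation. It was followed by Shf, an adaptor protein (11 and 7), and Sncb, beta-synuclein (10 and 7), both CpG-rich with 66.9% and 61.6% GC, and by Bad and 2010109I03Rik (8 in each pool at both). The highest count in pool 2 alone was 9, at the end of Il6ra, the interleukin 6 receptor, which had 4 in pool 1 and was picked after its values were seen. A base with FDR under 0.001 was present in both pools in 435 regions (64.3%), and 405 (59.8%) also overlapped the shorter of the authors' peak lists in both pools, close to the 60.6% of other distal regions.

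Genes with an open end more often had an open promoter. A promoter peak in both pools was found for 474 of the 635 eligible ends with a region (74.6%, 71.1 to 78) and for 64.7% of the 16738 without one. Conversely, 4.19% of eligible ends of genes with an open promoter had a region (3.83 to 4.58), against 2.66% (2.27 to 3.09) of the others. The difference was seen in the shortest genes (4.86%, 4.09 to 5.73, against 2.44%, 1.92 to 3.05) and in the middle tercile by length (4.8%, 4.16 to 5.51, against 3.01%, 2.27 to 3.91). In the longest genes, over 38.5 kb, the intervals overlapped (3.25%, 2.75 to 3.81, against 2.67%, 1.85 to 3.73). A convergent gene end on the other strand lay within 2 kb of 17% of ends with a region (14.2 to 20.2) and 14% of those without. A polyadenylation hexamer was present at 72.9% (69.3 to 76.3) and 74.6%. Median gene length was 19.6 kb with a region and 22.2 kb without.

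**Figure D5:**
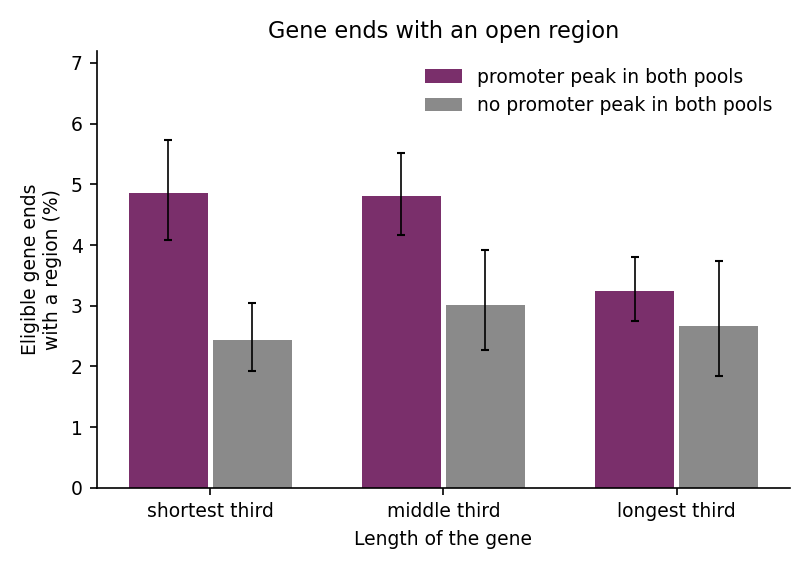
Percentage of eligible gene ends with an open region within 500 bp (y axis) by tercile of gene length (x axis), for genes with and without a promoter peak in both pools, with exact binomial 95% intervals. The shares are 4.86% and 2.44% in the shortest genes and 3.25% and 2.67% in the longest, where the intervals overlap.

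Of 9 lists of genes, steroidogenesis had the most open ends. A region was present at 4 of its 19 genes with an eligible end, beside 3.66% of all eligible ends, and 16 of the 19 had an open promoter. At Star, which carries cholesterol into mitochondria, chr8:25815421-25815840 lay in the 3′ UTR 351 bp before the end, close to the convergent end of Ash2l, with 1.92 in pool 1, 2.3 in pool 2 and 5 footprints in each. Past Cyp11b1, which makes corticosterone in the cortex, were 2 regions, at 482 bp (1.49 and 2.36) and 65 bp (1.52 and 1.89), both in an intron of the convergent Gml2. Past Hsd3b1, an enzyme of the same pathway, the region at 173 bp had 1.05 and 1.64, with 2 footprints in pool 2 and none in pool 1. Past Cyp21a1, the 21-hydroxylase, the region in the Tnxa exon had 0.587 and 0.472, under the lower quartile of the gene-end regions in both pools. Cyp11b1 and Cyp11b2, the Hsd3b genes and the Cyp21a1 segment have near-identical copies, so the placing of reads there is uncertain.

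The other lists held few or none. Ddit4, an inhibitor of mTORC1 induced by glucocorticoids, was the only one of 10 glucocorticoid response genes, with a region 198 bp past its end at 3.31 and 3.72 and an AP-1 match. Of 12 endothelial genes 2 had a region: Plvap, of the diaphragms of fenestrated capillaries (1.4 and 1.61), and Cdh5, VE-cadherin (0.334 and 0.504, no footprint in either pool). Of 19 cleavage and polyadenylation genes only Cpsf7, a subunit of cleavage factor I, had one (0.632 and 0.855). The midpoint at Plvap also lies within the record of Gtpbp3, and that at Cpsf7 within the record of Tmem216. To which gene these regions belong was not separated. No region was found at the eligible ends of 19 cholesterol synthesis genes, 25 chromaffin genes, 18 clock genes, 9 immediate early genes or 12 genes of chromosome architecture. With 3.66% of all eligible ends having a region, nothing is read from a count of 0 in lists of this length. By chromosome the share of eligible ends with a region ran from 5 of 715 on X (0.699%) and 1 of 114 on Y to 5.79% on chromosome 19 and 5.28% on chromosome 11. The animals were male, and the part of their single X in this low share was not tested.

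At the limit of the window, the outermost regions were past Cldn14, a tight junction protein, at exactly 500 bp (1.15 and 1.77), and in the 3′ UTR of Atp6v1g3, a proton pump subunit, 499 bp before the end (0.386 and 0.384). Just outside were regions 501 bp past 1190005I06Rik (0.817 and 1.24) and 501 bp past Asb11 (0.498 and 0.376). These values do not separate the inside from the outside.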

How the data were processed

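DNase-seq libraries of 2 adrenal pools were analysed from the deposited peak, footprint and FDR files on mm10, with GENCODE M21 and GRCm38 reference sequence. The deposited signal of a peak is the authors' own value. All values of the longer list were whole multiples of 0.00743 in pool 1 and 0.00799 in pool 2, within 0.05 of a step, and the lowest gene-end region had 30 and 25 steps. For the aligner, the callers, their versions and the thresholds: not given in the sources used here. What a step counts and the library depth are also not stated. The p-value type columns deposited by the authors were per-base FDR values, listed only under 0.05, and a constant 0.01 for footprints. The longer of each sample's peak lists was used (117371 and 146307 peaks).

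Regions, motifs (matched by letters on both strands) and eligible bases were computed with Python 3.11.15, numpy 2.4.6, pandas 2.3.3, scipy 1.17.1 and pysam 0.24.0, and these steps were tested on simulated data. The members and the gene and motif lists were chosen with earlier results of these data known. Regions named were the 10 with the highest mean rank of signal, up to 12 from the gene lists, up to 6 with CTCF and up to 3 with each of NR5A1, AP-1, CRE and NFI, the 5 with most footprints, the 5 highest and 5 lowest pool ratios, and those nearest the 500 bp limit; 1 of them is not reported here. The 8 printed sequences were picked from these after their values were seen. No test was run, since there is 1 group. Alternatives varied the peak list, signal, window, TSS distance, CDS rule, gene ends, overlap and pool. The addition of TSSs from the comprehensive GENCODE set and RefSeq, and the sorting of windows by GC, were chosen after seeing the data.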

Additional observations from a re-analysis of the deposited data

How the results depend on the processing

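The 677 gene-end regions became 405 with the shorter peak lists, 442 with the upper 50% of peaks by signal, 316 with a window of 250 bp and 1397 with a window of 1000 bp, and from 806 to 1020 with 1 pool left out. The density ratio to DNA at 2 to 10 kb, 1.04, was 1.13 with the upper 50% of peaks and 0.948 with the 250 bp window, the only alternative run that put it under 1, and 1.05 to 1.07 with 1 pool left out. The share past the end, 55.7%, was 59.5% with the 250 bp window, 59.8% when the whole region had to lie outside CDS, and 56 to 56.4% with 1 pool left out. Of the eligible bases, 51.5% lay past the end with the 250 bp window. The CDS rule left 369 of the 377 regions past the end and 617 of all 677. Eligible bases were not recounted for that rule, so its share has no matching reference. The CTCF share, 10.3%, moved by less than its interval under every alternative run, 8.81 to 8.82% with 1 pool left out included. The share with a footprint in both pools, 84.8%, was 93.8% with the shorter lists and 94.1% with the strongest peaks. With 1 pool left out it was 80.8 to 84.4%, counting footprints of the remaining pool. The share of genes with an open promoter, 74.3%, was 65.6% with the shorter lists and 75.5 to 77.7% with 1 pool left out. Promoter peaks were taken from the same lists, and the share among genes without a region was not computed under these alternatives. With start sites of the comprehensive GENCODE set and RefSeq added, an alternative chosen after seeing the data, 584 regions remained, with 1.05, 55.8%, 10.1%, 84.4% and 75% for these 5 values. The causes of these moves were not tested. Depth is unknown, so a gene end without a peak may hold a region too weak to call, and mapping to C57BL/6J of reads from hybrid animals was not examined.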
